A study of Mus musculus with 6 samples.

Results

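The peroxiredoxin and thioredoxin system was described through 10 genes chosen from a list of mouse gene symbols, out of 17254 gene identifiers in the data: the peroxiredoxins Prdx1, Prdx2, Prdx3, Prdx5 and Prdx6, the sulfiredoxin Srxn1, the thioredoxins Txn1 and Txn2, and the thioredoxin reductases Txnrd1 and Txnrd2. All 10 were found and all 10 were among the 12813 genes tested. Peroxiredoxins reduce hydrogen peroxide and organic peroxides with a reactive cysteine, and most of them are then reduced by thioredoxin, which in turn is reduced by thioredoxin reductase with electrons from NADPH. When the reactive cysteine of a peroxiredoxin is oxidised too far, sulfiredoxin repairs it. The cytosol and the mitochondrion hold separate thioredoxins and reductases (Txn1 and Txnrd1 in the cytosol, Txn2 and Txnrd2 in the mitochondrion), and the transcription factor NRF2 is known to induce several of the cytosolic members.

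RNA sequencing was done on cultured mouse neural stem and progenitor cells, grown in N2 medium with EGF and bFGF, with the stated aim of setting different intracellular redox potentials. The 3 groups, each of 2 libraries, were labelled control, PQ and NAC, and treatment lasted 48 h. The labels spell out neither agent and give no dose, strain, age or number of animals, and no deletion or transgene is named. The labels do not state whether replicate libraries derive from separate cultures, so p-values measure only how far these libraries vary, and that variation may be technical.

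Summed expected counts (estimated reads per gene) were 9680436 to 10698241 per library, and the 2 libraries of each group were less alike than repeat counts of 1 sample would be (chi-square divided by its degrees of freedom, 4.07 to 6.77 within and 14.6 to 37.3 between groups). All 6 markers of neural stem and progenitor cells were present, with a summed level of 5832 to 6022 CPM in control, 6449 to 6717 CPM with PQ and 4057 to 4103 CPM with NAC, where CPM stands for counts scaled to a common library size by TMM. Most of that sum was Vim (4058 to 4306, 4594 to 4871 and 2467 to 2489 CPM), and single markers differed from it. Sox2 was lower with PQ (351.8 and 413.4 CPM in control, 301.1 and 295.5 CPM with PQ, called by edgeR). With NAC 3 of the 6 (Sox2, Nes and Vim) were called lower by edgeR, while Pax6 and Fabp7 were not. DESeq2 called 3 of the 6 lower with NAC, and limma 1. Summed astrocyte markers lay at 53.4 to 57.5, 66.2 to 68.4 and 94.5 to 96.6 CPM, neuronal markers at 197.6 to 208.6, 182.1 to 192.9 and 319.7 to 360.2 CPM (nearly all Map2, with Rbfox3 at 0 and Dcx and Snap25 under 1 CPM) and oligodendrocyte markers at 62.8 to 69.7, 62.8 to 63.4 and 82.2 to 94.6 CPM (Mog at 0, Sox10 under 1 CPM), in the same order of groups. Microglia and blood cell markers summed to 2.04 to 4.06 CPM over the 6 libraries, endothelial markers to 0.52 to 1.98 CPM and fibroblast and pericyte markers to 1.66 to 6.75 CPM, with Tyrobp and Cldn5 at 0. Tubb3, the other tested neuronal marker, was called lower with both PQ and NAC by edgeR, though not with PQ by DESeq2. It was at 2.32 and 4.26 CPM in control, 0.8325 and 1.24 CPM with PQ, and 0.556 and 0.792 CPM with NAC. Over all genes edgeR called 8.8% lower with PQ and 9.26% lower with NAC. A list of 6 division genes summed to 2729 to 2731 CPM in control, 1404 to 1608 CPM with PQ and 2895 to 3211 CPM with NAC. In such bulk cultures fewer cells of a type and less RNA per cell cannot be told apart.

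Promoter sequences are shown for 4 of the 5 genes that differed between groups: Srxn1, Txnrd1 and Prdx1, which were higher with PQ, and Txn1, which was higher with NAC. They are the 250 bases before the annotated start, from RefSeq on GRCm38.p6, read 5′ to 3′ on the strand of the gene. Capitals mark matches to the core of the antioxidant response element bound by NRF2 (TGACNNNGC) or to the AP-1 site (TGACTCA), searched on both strands. Txnrd1 has several annotated starts, and the stretch printed for it is the one that holds a match.
Srxn1, chr2:152105274-152105523, plus strand: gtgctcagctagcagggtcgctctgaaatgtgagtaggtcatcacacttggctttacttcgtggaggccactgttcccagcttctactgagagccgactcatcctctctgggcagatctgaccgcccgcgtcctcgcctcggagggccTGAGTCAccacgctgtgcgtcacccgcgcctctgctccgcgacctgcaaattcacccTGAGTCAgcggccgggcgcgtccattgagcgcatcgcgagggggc
Txnrd1, chr10:82858956-82859205, plus strand: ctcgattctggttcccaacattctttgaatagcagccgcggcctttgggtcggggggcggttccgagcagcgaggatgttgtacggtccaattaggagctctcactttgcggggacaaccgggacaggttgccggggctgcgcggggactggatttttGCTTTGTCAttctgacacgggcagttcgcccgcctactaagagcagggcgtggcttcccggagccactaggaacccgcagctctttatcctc
Prdx1, chr4:116685349-116685598, plus strand: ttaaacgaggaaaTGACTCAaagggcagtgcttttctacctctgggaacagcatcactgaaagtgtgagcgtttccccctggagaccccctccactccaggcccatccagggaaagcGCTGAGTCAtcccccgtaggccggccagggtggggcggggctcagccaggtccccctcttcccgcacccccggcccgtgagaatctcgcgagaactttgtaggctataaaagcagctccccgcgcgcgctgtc
Txn1, chr4:57956412-57956661, minus strand: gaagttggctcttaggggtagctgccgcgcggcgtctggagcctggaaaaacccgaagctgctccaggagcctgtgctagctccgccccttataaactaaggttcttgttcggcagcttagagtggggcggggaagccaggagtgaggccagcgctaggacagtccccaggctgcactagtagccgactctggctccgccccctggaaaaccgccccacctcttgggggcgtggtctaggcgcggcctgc

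The motif search covered 300 bases per annotated start, 250 before and 50 after it, and 9 of the 10 genes had an entry. The antioxidant response element core was found in 3 of the 9, Srxn1, Txnrd1 and Prdx1, and in 14% of all 27025 genes in the table. Of all 32851 windows, 12.4% held it. All 3 matches are of the reverse complement, read on the strand of the gene. In Prdx1 the letters are GCTGAGTCA, from 133 to 125 bases before the start, and overlaps an AP-1 match. In Srxn1 it reads GCTAGGTCA, from 29 to 37 bases after the start and so past the stretch printed, and AP-1 matches lie 102 to 96 and 45 to 39 bases before the start. The Txnrd1 match, GCTTTGTCA, lies in 1 of the 3 annotated windows of that gene, 92 to 84 bases before that start. AP-1 matches were in 2 of the 9 genes, Srxn1 and Prdx1, and in 5.95% of all genes. No match to these letters was in the windows of Txn1, Txn2, Txnrd2, Prdx2, Prdx3 and Prdx5. A match is only a match of letters and says nothing of binding.

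Compared per transcript length, as FPKM (fragments per kilobase of transcript, scaled to library size), the 10 genes covered a wide range in control cells. Prdx2 and Prdx1, the abundant cytosolic peroxiredoxins, led with 293 ± 17.7 and 265.6 ± 0.127 FPKM (SD, n = 2). Txn1, the cytosolic thioredoxin, and Prdx5, a peroxiredoxin found in mitochondria, peroxisomes and cytosol, followed at 156 ± 0.933 and 155.5 ± 0.0495 FPKM. Their control levels differed by a factor of 1.01, and with PQ their ranges overlapped. Txn2 had 63.8 ± 3.25, Txnrd1 58.3 ± 1.27, Prdx3, the mitochondrial peroxiredoxin, 42.9 ± 1.655 and Prdx6 32.9 ± 4.16 FPKM. Srxn1 stood at 17.95 ± 3.02 FPKM and Txnrd2, the mitochondrial reductase, last at 4.25 ± 0.170 FPKM. Over all libraries Prdx2 and Prdx1 exceeded 98.5% and 98.4% of the tested genes in mean FPKM, and Txnrd2 exceeded 24.8%.

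**Figure D1:**
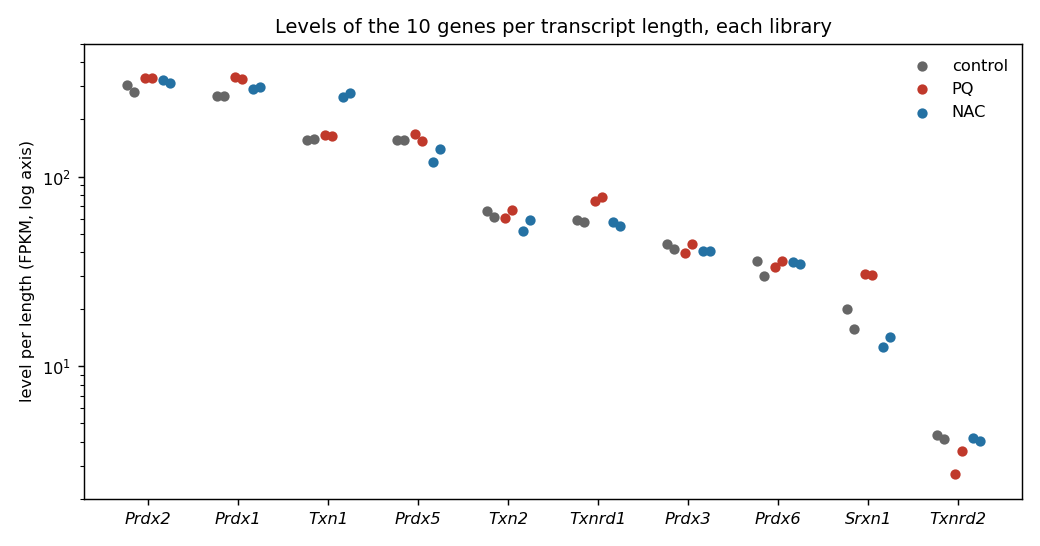
Level per transcript length (FPKM, log axis) of the 10 genes, ordered by their control mean, with 1 point per library coloured by group. Prdx2 and Prdx1 lie near the top at 265.6 FPKM or more, Txnrd2 is below 5 FPKM throughout, and Txn1 is at 261.5 and 276.5 FPKM with NAC.

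The order shifted with treatment in a few places. With PQ, Prdx1 and Prdx2 met at 330.9 and 330.5 FPKM with overlapping ranges, and Txnrd1 (75.9 FPKM) lay above Txn2 (63.3 FPKM). With NAC, Txn1 reached 269 FPKM, next to Prdx1 at 293 FPKM, while Prdx5 was at 129.6 FPKM, and Txnrd1 and Txn2 overlapped at 56.3 and 55.5 FPKM. In these groups Prdx3, Prdx6, Srxn1 and Txnrd2 kept the last 4 places in the same order.

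The first comparison was between PQ and control. The sulfiredoxin Srxn1, the cytosolic reductase Txnrd1 and the peroxiredoxin Prdx1 rose, by 1.66-fold, 1.27-fold and 1.22-fold, and neither thioredoxin passed the test. The quasi-likelihood test of edgeR (adjusted p under 0.05 over all 12813 genes) called 3 of the 10 genes higher, where 9.07% of all tested genes were higher, and 0 lower, where 8.8% of all were. At an unadjusted p under 0.05, 1 gene, Txnrd2, was lower, and DESeq2 and limma called 0 lower. Counted in either direction, 17.9% of all genes were called, and the libraries of the groups did not overlap for 6 of the 10 genes and 57.2% of all. Without PQ replicate 1 or without PQ replicate 2 the number higher was 1, Srxn1. The median log2 fold change of the 10 was 0.04, beside 0.00 over all genes.

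In NAC against control the pattern differed: Txn1 rose 1.66-fold, and Srxn1 and Prdx5 fell 1.38-fold and 1.24-fold. This was 1 gene higher (background 8.65%) and 2 lower (background 9.26%), with a median log2 fold change of -0.09 beside 0.00 over all genes. In either direction 17.9% of all genes were called, and the libraries did not overlap for 8 of the 10 genes and 56.6% of all. Without control replicate 1 or without NAC replicate 1, neither of the 2 lower genes was called.

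PQ against NAC tests whether the agents differed from each other. Srxn1 was 2.28-fold, Txnrd1 1.36-fold and Prdx5 1.26-fold higher with PQ, and Txn1 was 1.61-fold higher with NAC. In this comparison 3 genes were higher with PQ (background 15.5%) and 1 was lower (background 15.1%), with a median log2 fold change of 0.13 beside 0.00 over all genes. In either direction 30.6% of all genes were called, and the libraries did not overlap for 8 of the 10 genes and 66% of all. PQ and NAC were compared with the same 2 control libraries, so the first 2 comparisons are not independent. In a joint test of any difference between the 3 groups 5 of the 10 genes passed (background 35.9%): Srxn1, Txn1, Txnrd1, Prdx5 and Prdx1.

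**Figure D2:**
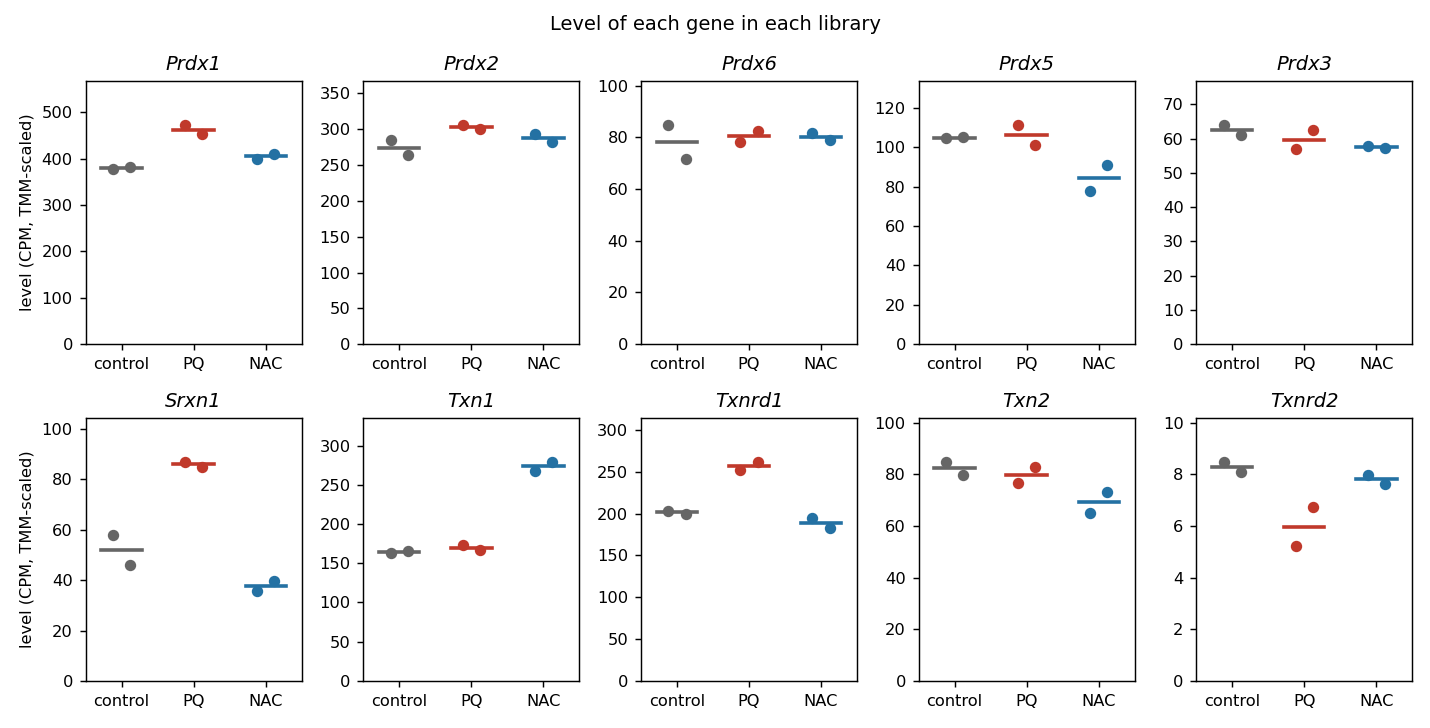
Level of each of the 10 genes (CPM, each panel from 0), with 1 point per library and a line at the group mean. Srxn1 and Txnrd1 are highest with PQ and Txn1 with NAC, in both libraries of the group, while Prdx6 overlaps between all groups.

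Srxn1 (Entrez gene 76650, chromosome 2, 152105524 to 152111376, GRCm38.p6) showed the largest difference between PQ and NAC of the 10 genes. Its level was 57.8 and 45.9 CPM in control, 87.1 and 84.9 CPM with PQ, and 35.7 and 39.6 CPM with NAC. The 3 groups did not overlap, with PQ highest and NAC lowest, and the control libraries were the least alike. Against control the log2 fold change was 0.73 ± 0.11 (SE) with PQ (edgeR adjusted p = 0.00029), with 571 of the tested genes having a larger increase. With NAC it was -0.46 ± 0.12 (edgeR adjusted p = 0.011), and the direct difference between the agents was 1.19 ± 0.12 (edgeR adjusted p = 6e-07). Without control replicate 1, the higher of the control libraries, the decrease with NAC was -0.28 and the call was lost (edgeR adjusted p = 0.15). It was also lost without NAC replicate 1 (-0.39, edgeR adjusted p = 0.12) and with limma on FPKM (adjusted p = 0.061). The increase with PQ was 0.57 when control replicate 2 was left out and 0.90 when control replicate 1 was, and stayed called.

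Txnrd1 (Entrez gene 50493, chromosome 10, 82833951 to 82897724), the selenoprotein that keeps cytosolic thioredoxin reduced, was at 203.5 and 199.8 CPM in control, 251.8 and 262.3 CPM with PQ, and 195.3 and 182.6 CPM with NAC. Both PQ libraries lay above the other 4. The log2 fold change was 0.35 ± 0.09 with PQ (edgeR adjusted p = 0.011), -0.09 ± 0.09 with NAC (edgeR adjusted p = 0.53) and 0.44 ± 0.09 for PQ against NAC (edgeR adjusted p = 0.001). The call with PQ was lost without PQ replicate 2 (edgeR adjusted p = 0.13) or PQ replicate 1 (0.0504). Txnrd1 is listed with 4 transcripts, and the deposited length, which weights them, stayed at 3365 to 3389 bases over the 6 libraries.

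Txnrd2 (Entrez gene 26462, chromosome 16, 18426417 to 18479073), its mitochondrial counterpart, was the least abundant of the 10, at 50 to 86 expected counts a library. It measured 8.49 and 8.10 CPM in control, 5.20 and 6.75 CPM with PQ, and 7.97 and 7.62 CPM with NAC. The PQ libraries were the lowest, but the difference from control (-0.47 ± 0.21, edgeR adjusted p = 0.13) did not pass, with a 95% interval of -0.90 to -0.04. At this depth counting error alone was 13% of its PQ level.

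Txn1 (Entrez gene 22166, chromosome 4, 57943373 to 57956411) was the gene that rose with NAC. Its level was 162.8 and 165.6 CPM in control, 172.9 and 166.5 CPM with PQ, and 267.2 and 279.5 CPM with NAC. The NAC libraries stood far above the other 4. The log2 fold change was 0.74 ± 0.09 with NAC (edgeR adjusted p = 1.3e-05), with 526 of the tested genes having a larger increase, and -0.69 ± 0.09 for PQ against NAC (edgeR adjusted p = 1.4e-05). With PQ it was 0.05 ± 0.09 (edgeR adjusted p = 0.77), with a 95% interval of 0.905-fold to 1.18-fold. In edgeR the NAC libraries also had 3 of 5 astrocyte markers (Gfap, Aqp4 and Slc1a2) and the neuronal marker Map2 higher than control. The astrocyte marker S100b was not called. Neither was Aldh1l1, at 4.245 and 3.53 CPM in control and 3.43 and 2.08 CPM with NAC. Lower with NAC in edgeR were 3 of 6 stem cell markers (1 of 6 by limma) and Tubb3, which was also called lower with PQ. Over all genes 8.65% were higher and 9.26% lower with NAC. The part of these marker differences in the Txn1 difference was not tested.

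Txn2 (Entrez gene 56551, chromosome 15, 77915051 to 77928994), the mitochondrial thioredoxin, was at 84.9 and 79.7 CPM in control, 76.7 and 83.0 CPM with PQ, and 65.2 and 73.3 CPM with NAC. The NAC libraries were the lowest. The log2 fold change with NAC, -0.25 ± 0.10, did not pass (edgeR adjusted p = 0.1), and neither did that with PQ (-0.04 ± 0.10, edgeR adjusted p = 0.82).

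Among the cytosolic peroxiredoxins, Prdx1 (Entrez gene 18477, chromosome 4, 116685599 to 116700000) was at 378 and 381.5 CPM in control, 473.1 and 453 CPM with PQ, and 400.6 and 410 CPM with NAC. All 3 groups were apart, with control lowest. Its log2 fold change with PQ was 0.29 ± 0.09 (edgeR adjusted p = 0.029), and the call was lost when any 1 control or PQ library was left out (edgeR adjusted p = 0.077 to 0.18). With NAC it was 0.09 ± 0.09 (edgeR adjusted p = 0.5), and the difference between the agents, 0.19 ± 0.09, did not pass (edgeR adjusted p = 0.1), so a difference between the agents in Prdx1 was not shown.

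Prdx2 (Entrez gene 21672, chromosome 8, 84969622 to 84974811), close in sequence and role to Prdx1, was at 284.9 and 263.8 CPM in control, 306.1 and 300.6 CPM with PQ, and 293.2 and 282 CPM with NAC. Its log2 fold changes were 0.14 ± 0.09 with PQ (edgeR adjusted p = 0.3) and 0.07 ± 0.09 with NAC (edgeR adjusted p = 0.66). The PQ libraries were the highest but close to the others. Prdx6 (Entrez gene 11758, chromosome 1, 161240112 to 161251210), which uses glutathione instead of thioredoxin and also has phospholipase activity, overlapped between all groups. It was at 84.8 and 71.5 CPM in control, 78.3 and 82.6 CPM with PQ, and 81.8 and 78.8 CPM with NAC. Its 95% intervals ran from 0.884-fold to 1.2-fold with PQ and from 0.882-fold to 1.2-fold with NAC.

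Prdx5 (Entrez gene 54683, chromosome 19, 6906697 to 6910106) was at 104.4 and 105.3 CPM in control, 111.3 and 101.1 CPM with PQ, and 77.9 and 91.2 CPM with NAC. The NAC libraries were lowest and differed from each other by more than the control libraries did. The log2 fold change with NAC was -0.31 ± 0.10 (edgeR adjusted p = 0.044), that with PQ 0.02 ± 0.10 (edgeR adjusted p = 0.93), and PQ against NAC gave 0.33 ± 0.10 (edgeR adjusted p = 0.021). The NAC call was lost in 10 of 15 alternative fits, and without NAC replicate 1 the value was -0.20 (edgeR adjusted p = 0.37). PQ against NAC was lost without PQ replicate 1 (0.26, edgeR adjusted p = 0.19) and without NAC replicate 1 (0.22, edgeR adjusted p = 0.25). Prdx5 shares 19.1% of its exonic bases with Trmt112 on the other strand, which had -0.27 ± 0.10 with NAC (edgeR adjusted p = 0.075), and strand use in the counting is not given in the sources used here.

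Prdx3 (Entrez gene 11757, chromosome 19, 60864066 to 60874538), the peroxiredoxin of the mitochondrial matrix, was at 64.0 and 61.1 CPM in control, 56.8 and 62.35 CPM with PQ, and 57.75 and 57.2 CPM with NAC. The log2 fold changes were -0.07 ± 0.10 and -0.12 ± 0.10 (edgeR adjusted p = 0.7 and 0.46), and the PQ libraries overlapped both other groups. Prdx3, Txn2 and Txnrd2 (the matrix peroxiredoxin, the mitochondrial thioredoxin and its reductase) had 0 calls in the 3 edgeR comparisons, in which 17.9%, 17.9% and 30.6% of all genes were called, with Txn2 (NAC) and Txnrd2 (PQ) at an unadjusted p under 0.05, and DESeq2 and limma called 0 as well. Prdx2 shares 5.8% of its exonic bases with Rnaseh2a and 5.67% with Junb, both on the other strand.

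**Figure D3:**
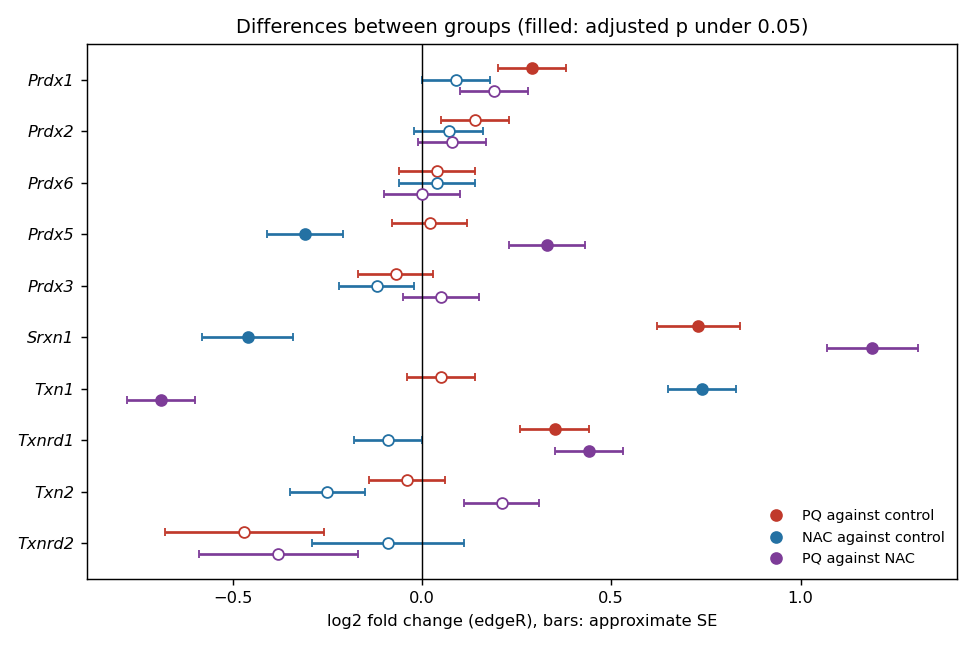
Log2 fold change of each gene in the 3 comparisons, with bars for the approximate standard error and filled points for adjusted p under 0.05. Srxn1 reaches 1.19 for PQ against NAC and Txn1 -0.69, while all points of Prdx2, Prdx6, Prdx3, Txn2 and Txnrd2 are open.

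The balance between members was described by FPKM ratios within a library. Txn1 was 2.63 and 2.74 times Txnrd1 in control, 2.25 and 2.10 times with PQ, and 4.515 and 5.05 times with NAC. PQ was thus below and NAC above control, the groups not overlapping. Prdx1 and Prdx2 together were 28.4 and 34.5 times Srxn1 in control, 21.8 and 21.7 times with PQ, and 48.0 and 42.9 times with NAC. Txn1 over Txn2, the cytosolic over the mitochondrial thioredoxin, was 2.35 and 2.55 in control, 2.77 and 2.46 with PQ, and 5.035 and 4.68 with NAC. For the reductases the order was another: Txnrd1 over Txnrd2 was 13.5 and 13.9 in control and 13.8 and 13.5 with NAC, but 27.4 and 21.8 with PQ. Txnrd2 had only 50 and 71 expected counts in the PQ libraries, and its own difference from control did not pass. The 5 peroxiredoxins summed to 806 and 773 FPKM in control, 904.5 and 892.5 FPKM with PQ, and 804.2 and 826.1 FPKM with NAC. Prdx1 and Prdx2 made up 70.6% to 75.8% of that sum in every library. The sum leaves out Prdx4, which had a mean of 102 FPKM in control, 91.8 FPKM with PQ and 101 FPKM with NAC. These ratios are given as a description and were not tested.

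**Figure D4:**
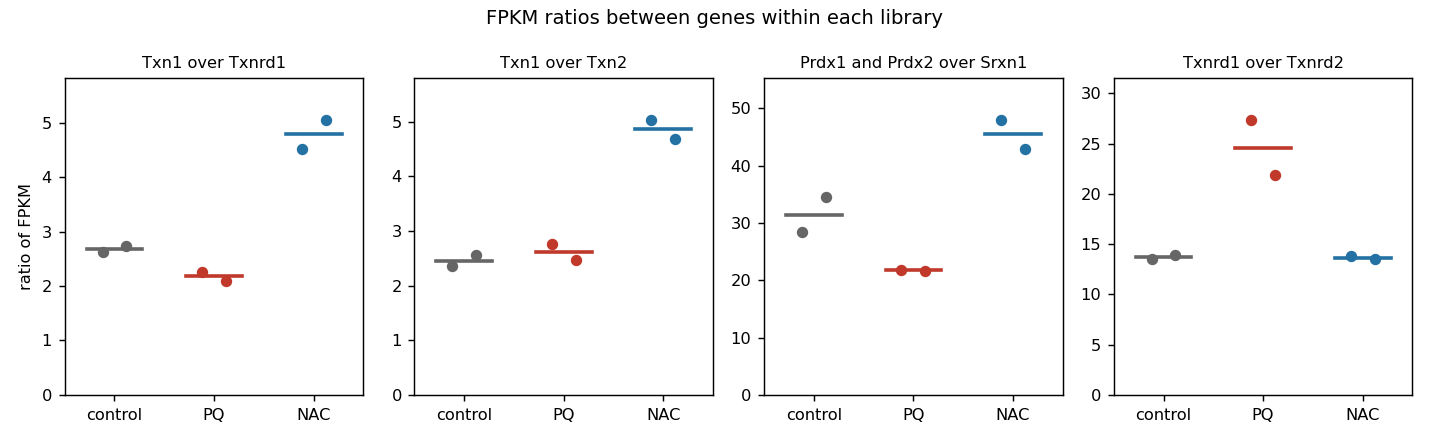
Ratios of FPKM between genes within each library (axes from 0), with 1 point per library and a line at the group mean. Txn1 over Txnrd1 and Txn1 over Txn2 are highest with NAC (4.515 or more), Prdx1 and Prdx2 over Srxn1 is lowest with PQ, and Txnrd1 over Txnrd2 is highest with PQ. Txnrd2 had 50 and 71 expected counts in the PQ libraries.

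Other genes of the pathway were read from 3 lists. Of 21 relatives with a thioredoxin fold, 2 were higher and 2 lower with PQ, 1 was higher and 2 lower with NAC, and 4 were higher and 1 lower for PQ against NAC. Over all genes the shares higher and lower were 9.07% and 8.8%, 8.65% and 9.26%, and 15.5% and 15.1%. Without PQ replicate 1 the higher count was 0 for PQ against control and 2 for PQ against NAC, and without NAC replicate 1 the lower count for NAC was 0. The higher count for PQ against control was 1 without PQ replicate 2, its lower count was 1 without control replicate 2, PQ replicate 1 or PQ replicate 2, and the lower count for NAC was 1 without control replicate 2, PQ replicate 1, PQ replicate 2 or NAC replicate 2. The medians of the list were 0.02, -0.06 and 0.02, beside 0.00 over all genes. Nxn, nucleoredoxin, was at 26.8 and 21.1 CPM in control, 33.1 and 34.7 CPM with PQ, and 18.1 and 20.9 CPM with NAC, a log2 difference between the agents of 0.80 ± 0.14 (edgeR adjusted p = 0.00033). Its increase over control with PQ was 0.50 ± 0.14 (edgeR adjusted p = 0.019). The call was lost without control replicate 2 (0.34), PQ replicate 1 (0.54) or PQ replicate 2 (0.47). Txndc9 rose with PQ (0.42 ± 0.10, edgeR adjusted p = 0.0051), though not without PQ replicate 1 (0.059). Txndc16 rose with NAC (0.79 ± 0.13, edgeR adjusted p = 0.00024), and Tmx4, a membrane protein of the endoplasmic reticulum, fell with both PQ (-0.50 ± 0.10, edgeR adjusted p = 0.0014) and NAC (-0.43 ± 0.10, edgeR adjusted p = 0.0034, but 0.052 without NAC replicate 1). The other calls were Txndc12 (lower with PQ) and Txndc17 and Glrx3 (higher with PQ than with NAC). Prdx4, the peroxiredoxin of the endoplasmic reticulum, was at 98.8 and 99.3 CPM in control, 92.9 and 81.8 CPM with PQ, and 86.8 and 103.1 CPM with NAC, and passed no comparison. Txnrd3, a reductase best known from testis, was low at 6.86 to 10.7 CPM, and its difference with NAC (-0.54 ± 0.18, edgeR adjusted p = 0.048) was lost when any 1 of the 6 libraries was left out (edgeR adjusted p = 0.06 to 0.22).

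Of 13 clients and regulators of thioredoxin, 1 was higher and 4 lower with PQ, 2 were higher and 2 lower with NAC, and 1 was higher and 4 lower for PQ against NAC (medians -0.03, 0.17 and -0.24), beside the same shares over all genes of 9.07% and 8.8%, 8.65% and 9.26%, and 15.5% and 15.1%. The number lower for PQ against NAC was 2 without PQ replicate 2, and that lower with NAC was 1 without control replicate 2 or NAC replicate 2. Txnip, which binds thioredoxin and inhibits it, was at 12.9 and 19.2 CPM in control, 2.29 and 2.09 CPM with PQ, and 19.5 and 21.1 CPM with NAC. Its log2 fold change with PQ was -2.87 ± 0.24 (edgeR adjusted p = 7.2e-07) and that with NAC 0.34 ± 0.17 (edgeR adjusted p = 0.2). Without control replicate 2 the value with NAC was 0.65 and was called (edgeR adjusted p = 0.019). Txnip shares 19.4% of its exonic bases with an antisense gene. The ribonucleotide reductase subunits Rrm1 and Rrm2, whose enzyme thioredoxin can reduce, fell with PQ by 0.53 and 0.60 on the log2 scale (edgeR adjusted p = 0.00051 and 0.00019). The division genes fell with PQ as well, 6 of 6 in edgeR (Mki67, a marker of cycling cells, by 1.14 on the log2 scale, edgeR adjusted p = 7.9e-07), and their part in the Rrm1 and Rrm2 differences was not tested. Sesn2, a stress-induced sestrin, fell with NAC (-1.36 ± 0.16, edgeR adjusted p = 1e-05). Its decrease with PQ (-0.50 ± 0.15, edgeR adjusted p = 0.03) was lost in 6 of 15 alternative fits, among them without control replicate 2 (0.4). The higher gene with PQ was Map3k5, the kinase ASK1 that thioredoxin holds inactive, and that call was lost without any 1 of the 6 libraries. With NAC, Map3k5 and the methionine sulfoxide reductase Msrb3 were higher, neither without NAC replicate 1. Sesn2 was the gene higher with PQ than with NAC. The remaining calls were Rrm2b (lower with NAC) and Sesn1 (lower with PQ than with NAC).

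The third list held 12 other genes known as NRF2 targets. With PQ 5 were higher and 0 lower in edgeR (9 and 0 at an unadjusted p under 0.05, 5 and 0 by DESeq2, 5 and 0 by limma), with a median log2 fold change of 0.30. With NAC 0 were higher and 4 lower (1 and 5 unadjusted, 0 and 5 by DESeq2, 0 and 3 by limma), with a median of -0.21. For PQ against NAC 9 were higher and 0 lower (9 and 0 unadjusted, 8 and 0 by both DESeq2 and limma), with a median of 0.75. All medians over all genes were 0.00, and the shares of all genes were 9.07% higher with PQ, 9.26% lower with NAC and 15.5% higher for PQ against NAC. The number higher with PQ was 3 without control replicate 2. Hmox1, heme oxygenase, was at 66.3 and 61.8 CPM in control, 116.7 and 142.8 CPM with PQ, and 43.4 and 50.1 CPM with NAC, higher with PQ (1.02 ± 0.11, edgeR adjusted p = 9.4e-06) and lower with NAC (-0.46 ± 0.12, edgeR adjusted p = 0.011). The call with NAC was lost without NAC replicate 1 (edgeR adjusted p = 0.14). G6pdx, the pentose phosphate enzyme that makes NADPH, had the same order, at 190.3 and 174.9, 231.1 and 222.5, and 125.5 and 125 CPM, and its call with PQ was lost without control replicate 2, PQ replicate 1 or PQ replicate 2. The ferritin chains Fth1 and Ftl1 rose with PQ by 0.78 ± 0.09 and 0.67 ± 0.11 (edgeR adjusted p = 8.7e-06 and 0.00036), and neither passed with NAC. The fifth gene higher with PQ was Me1, and Gclc and Abcc1 were the other two lower with NAC. G6pdx shares 13.6% and Ftl1 26.5% of their exonic bases with a gene on the other strand.

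**Figure D5:**
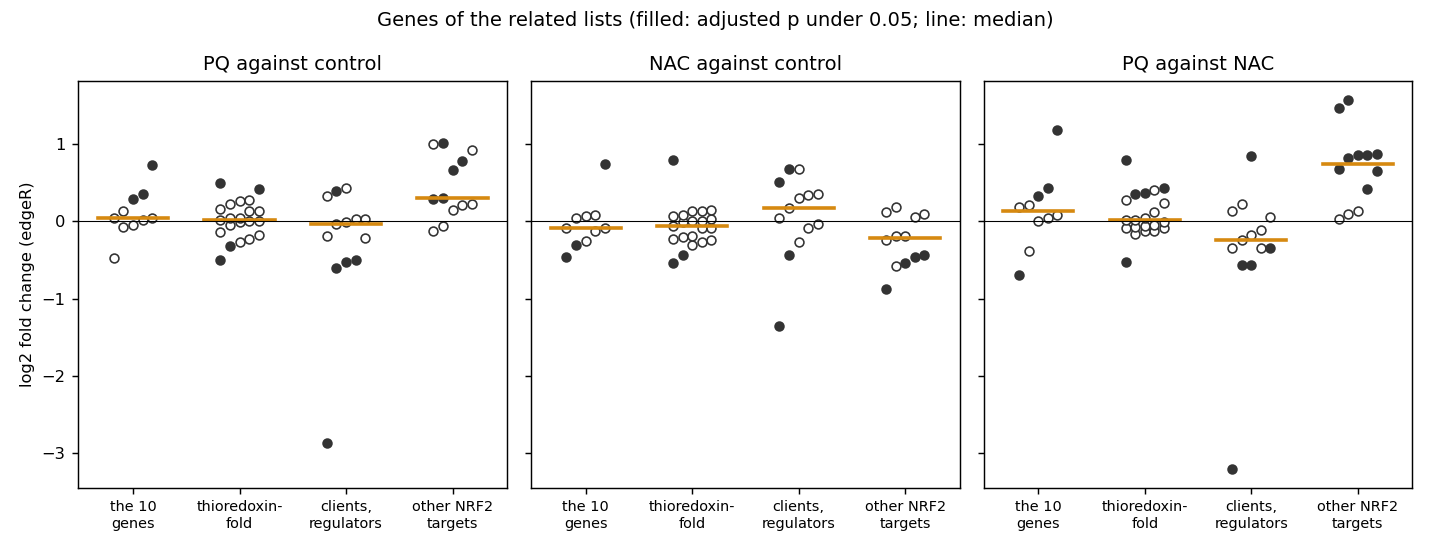
Log2 fold changes of the 10 genes and of the 3 related lists in each comparison, with 1 point per gene, filled for adjusted p under 0.05, and a line at the median of the list. The other NRF2 targets have a median of 0.30 with PQ, -0.21 with NAC and 0.75 for PQ against NAC, and the lowest point in the first and last panel is Txnip.

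Genes of like pattern were sought for Srxn1, Txn1 and Txnrd1 among 10455 named genes with a mean of at least 5 CPM, by Pearson r of log2 CPM over the 6 libraries. With 3 groups of 2 libraries r mainly follows the 3 group means, so it is a description and has no test. Nearest to Srxn1 were Gstt1, a glutathione S-transferase (r = 0.9995), Noct, nocturnin (r = 0.9978), and Zfp52 (r = 0.9957). Gstt1 was at 30.1 and 24.7 CPM in control, 46.2 and 44.8 CPM with PQ, and 18.8 and 21.3 CPM with NAC. Among the nearest to Txn1 were Aldh1a1, a retinaldehyde dehydrogenase, and the growth factor gene Ptn. Aldh1a1 rose from 4.35 and 5.20 CPM in control to 18.0 and 21.1 CPM with NAC, with 5.41 and 5.04 CPM with PQ. Nearest to Txnrd1 were the lysosomal mannosidase Manba, the kinase Cdk12 and the receptor Tgfbr3.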

How the data were processed

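RNA from 6 libraries of cultured mouse neural progenitor cells, 2 each for control, PQ and NAC, was sequenced on a BGISEQ-500, per the labels' protocols, which describe both rRNA depletion and oligo dT selection without saying which was used. RSEM, Bowtie2 2.2.5, HISAT2 2.0.4 and the build mm10 are listed, without roles, per the submitters' processing notes. The deposited files give, per Entrez gene and per the file headers, an expected count (an estimated count), an FPKM value normalized by the authors, and a weighted length. Of 17254 identifiers, 17199 were named. The 55 others held 0.0724% to 0.0789% of the counts and were not removed before the filter and the tests.

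Expected counts were rounded, filtered with filterByExpr (minimum count 10, minimum total 15), scaled by TMM and tested with the quasi-likelihood F-test of edgeR 4.0.16 in R 4.3.3, with 1 mean per group over all 6 libraries and 3 residual degrees of freedom. P-values were adjusted by the Benjamini-Hochberg method over 12813 genes, with a threshold of 0.05. The standard error is approximate, the log2 fold change over the root of F. Alternatives used other scalings, filters, a robust fit, only the libraries compared, each library left out, DESeq2 1.42.0 on the counts, and limma 3.58.1 on log2(FPKM + 1) and log2(FPKM + 0.1). The scripts were tested on simulated data. The 10 genes are all described. Of each related list, up to 4 genes past the threshold with the smallest p of any difference between the groups were named, besides Prdx4, Txnrd3 and Txnip. Outside this rule, Map3k5 and Msrb3 were named after their values were seen. Txndc12, Txndc17, Glrx3, Rrm2b, Sesn1, Me1, Gclc and Abcc1, also outside it, were named as calls without values. Some results on genes outside the lists are not reported here. The members and lists were chosen with earlier results of these data known. Promoters came from RefSeq on GRCm38.p6, the assembly that mm10 names.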

Additional observations from a re-analysis of the deposited data

How the results depend on the processing

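Of 450 alternative fits of the 30 member comparisons, 428 kept their side of the threshold, 22 lost the call and 0 gained one. Among called differences 0 reversed. Small estimates that were not called changed sign in some fits, such as Prdx6 with PQ (0.04, but -0.07 without control replicate 2). The number of genes lower with NAC, 2, was 1 with library size scaling only, 1 with only the 4 libraries compared, 1 with DESeq2 and 0 with limma at either pseudocount. With 1 library left out it ranged from 0 to 2. Also with 1 library left out, the number higher with PQ against control ranged from 1 to 3, and the number with any difference, 5 with all libraries, from 3 (without PQ replicate 1 or NAC replicate 1) to 4. Over all genes the calls ranged from 829 to 2181 for PQ against control (lowest without PQ replicate 2), from 1338 to 2157 for NAC against control (lowest without NAC replicate 1), from 2427 to 4442 for PQ against NAC (lowest without PQ replicate 2) and from 3043 to 5032 for any difference (lowest without PQ replicate 2). Where a library was left out, the lone one was assumed to vary like the other groups. The causes of these ranges, the smaller number of samples among them, were not tested. Ranks by FPKM were the same by TPM for 10 of 10 genes. TPM was computed from FPKM, which cannot change ranks within a library, so this was no separate check. Depth limited Txnrd2, at 50 to 86 expected counts. No paired analysis was run. The numbers in the titles (8 and 11 for control, 9 and 12 for PQ, 10 and 13 for NAC) are shared by no 2 groups, and no label says what they mark. Whether their order stands for 2 rounds of all groups is not given in the sources used here, and a fit by such rounds was not run.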
